A study of Mus musculus with 5 samples.

Results

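Foxp3-positive regulatory T cells made up 360 of the 22847 barcodes that passed the cell filter and held a UMI of a CD3 gene, a share of 1.58% (exact 95% interval 1.42 to 1.75%). A barcode marks 1 captured cell, and a UMI (unique molecular identifier) marks 1 captured RNA molecule. The cells were chosen on their own measured counts. A barcode needed at least 500 UMIs, at least 300 genes, at most 10% mitochondrial UMIs and at least 1 UMI of Cd3d, Cd3e or Cd3g. It also needed at least 1 UMI of Foxp3 and at least 1 UMI of Ikzf2 or Ctla4. They were set beside 12432 Foxp3-negative CD4 barcodes of the same libraries, which held no UMI of Foxp3, none of Trdc and at least 1 of Cd4. The levels of these 8 genes were therefore used by the choice and are given below only as a description.

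The study profiled T cells of mice by droplet single-cell RNA sequencing with 10x Genomics 5' chemistry. The T cells were CD4 cells taken from the spleen of 1 naive OT-II mouse, a line whose transgenic receptor recognises an ovalbumin peptide on MHC class II, by a kit that removes other cells. The labels give rKPC apCAF cocultures with OVA and with DMSO, sKPC apCAF cocultures with OVA and with DMSO, and the T cells alone, with 1 sample each. The apCAFs are antigen-presenting cancer-associated fibroblasts sorted from mouse pancreatic tumours, of the clones sKPC and rKPC, the cultures lasted overnight, and OVA stands for the cognate peptide. The cells of 5 samples were deposited in 2 matrices, G and H. The barcode suffixes give 3 libraries in G, called Ga, Gb and Gc here, and 2 in H, called Ha and Hb. The labels tie 2 samples to G and 3 to H, and no source used here ties a suffix to a sample. No library could be assigned to a culture, so each value is given per library, no comparison between cultures was made, and no test or p-value is given. All intervals cover counting error only. The protocol names 1 donor mouse for the T cells, so no value here carries a spread between animals.

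Regulatory T cells are CD4 T cells that restrain other immune cells and prevent autoimmunity. They depend on the X-linked transcription factor Foxp3, take up interleukin-2 through the high-affinity receptor chain Il2ra, and block costimulation through Ctla4. In the spleen they range from central cells, which carry genes of the naive state such as Ccr7, to effector cells, which carry genes of tissue residence and repeated stimulation.

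The Foxp3-positive barcodes of a library had a median of 8669 (Gb) to 10306.5 (Ga) UMIs, against 7891.5 (Gb) to 8557 (Ga) UMIs in the Foxp3-negative CD4 barcodes. No Foxp3-positive barcode sequence was shared between libraries, and any pair of libraries shared between 2 and 14 barcode sequences in all. One barcode stood apart. It held 278399 UMIs, 43.1% of all UMIs of the Foxp3-positive barcodes of Gb, with 512 UMIs of the fibroblast markers and 1 Foxp3 UMI. Where a level is given for each library, the value of Gb without it stands in parentheses. Where a level is given as a range over libraries, Gb is counted without it. Ratios and calls include it unless stated. Another barcode in Gc held 128770 UMIs, with 215 UMIs of the dendritic cell markers and none of the fibroblast or myeloid ones. Fibroblast, myeloid and dendritic marker UMIs sat mostly in single barcodes. Of 683 myeloid marker UMIs in the Foxp3-positive barcodes, 592 were in 1 barcode of Gc. Of 1624 dendritic cell marker UMIs, 768 were in 1 barcode of Ga and 436 in 1 of Gc. Other lists were spread more widely, with 930 UMIs of gamma-delta or innate-like T cell markers in 152 of the 360 barcodes, 233 of erythroid markers in 145 and 79 of NK cell markers in 27. With all barcodes, the summed dendritic list ranged over the libraries from 18.6 to 690 CPM in the Foxp3-positive barcodes, against 3.60 to 88.9 CPM in the Foxp3-negative ones. The erythroid list ranged from 16.8 to 80.7 CPM in the Foxp3-positive barcodes, against 42.0 to 1064 CPM in the Foxp3-negative ones. CPM is counts per 1000000 UMIs of the population in the library. Likely doublets were taken as barcodes with a UMI of the B, myeloid, erythroid or CD8 T markers, or among the 5% with most UMIs. Without them, 218 of the 345 higher and 34 of the 64 lower genes described below were called again. The fibroblast, dendritic, NK and gamma-delta lists were not used to leave barcodes out. The part of free RNA in the results was not tested.

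The genes that chose the cells gave the following values. Foxp3 (chromosome X, 7573644 to 7595245, plus strand, build GRCm38) had 419 CPM in Ga, 182 CPM in Gb (318 without its largest barcode), 320 CPM in Gc, 403 CPM in Ha and 277 CPM in Hb. Of the 360 barcodes, 109 held 1 UMI of Foxp3, 59 held 2 and 192 held 3 or more. Ikzf2, which encodes the transcription factor Helios (chromosome 1, 69531214 to 69687245, minus strand), ranged from 2520 CPM (Gc) to 4035 CPM (Gb), or 2307 CPM in Gb with its largest barcode, against 64.4 CPM (Hb) to 92.8 CPM (Gb) in the Foxp3-negative barcodes. Ctla4 (chromosome 1, 60887000 to 60915832, plus strand) ranged from 592 CPM (Gb) to 858 CPM (Ha), or 337 CPM in Gb with its largest barcode, against 35.4 CPM (Hb) to 60.4 CPM (Ha). Both second markers were present in 284 barcodes, Ikzf2 without Ctla4 in 46, and Ctla4 without Ikzf2 in 30. The other markers named for the class were thus not all present in every cell.

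Just outside the threshold lay 106 barcodes with a Foxp3 UMI but none of Ikzf2 or Ctla4. Their RNA was close to that of the Foxp3-negative cells in the genes compared. Satb1 had 2424 CPM in these 106, 658 CPM in the 358 chosen barcodes of at most 100000 UMIs, and 2214 CPM in the Foxp3-negative barcodes. Tnfrsf4, a costimulatory receptor, had 7.41 CPM in the 106, 242 CPM in the chosen barcodes and 15.7 CPM in the Foxp3-negative ones. Lrrc32 was at 0 UMIs in the 106 barcodes. Just inside the threshold, the barcodes with a single Foxp3 UMI had 1112 CPM of Satb1 and 122 CPM of Tnfrsf4, between the barcodes with 3 or more (517 and 309 CPM) and the Foxp3-negative ones. The 30 barcodes chosen by Ctla4 alone had 1607 CPM of Satb1 and 113 CPM of Nrp1, a receptor linked to thymus-derived regulatory T cells, while the barcodes chosen by Ikzf2 alone had 930 and 414 CPM. A Foxp3 UMI was found in 13 of 1792 kept CD3-negative barcodes (0.725%, 0.387 to 1.24%), which had a median of only 1012 UMIs, and none of them met the whole rule. The 36 CD3-negative barcodes with at least 3 B marker UMIs held no Foxp3 UMI, which allows a share of up to 9.74% (exact 95% limit).

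The share of Foxp3-positive cells lay between 0.967% and 1.95% in the libraries. It was 1.95% in Ga (102 of 5229 CD3 barcodes, 1.59 to 2.36%), 1.27% in Gb (39 of 3079, 0.902 to 1.73%) and 1.61% in Gc (103 of 6415, 1.31 to 1.94%). It was 1.86% in Ha (78 of 4194, 1.47 to 2.32%) and 0.967% in Hb (38 of 3930, 0.685 to 1.32%). Ga and Ha were highest, and the interval of Hb overlapped those of Gb and, by a small margin, Gc, but not those of Ga and Ha. After each barcode was thinned to 1500 UMIs and the rule applied again, the G libraries Ga, Gb and Gc had shares of 0.897%, 0.326% and 0.695%, and the H libraries Ha and Hb had 0.873% and 0.367%. Gb was then lowest. Without likely doublets Ha was highest at 1.51% and Gb lowest at 0.941%, so the order of the libraries depends on the setting. A requirement of 2 Foxp3 UMIs gave 1.10% over all libraries, and Foxp3 alone gave 2.04%.

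**Figure D1:**
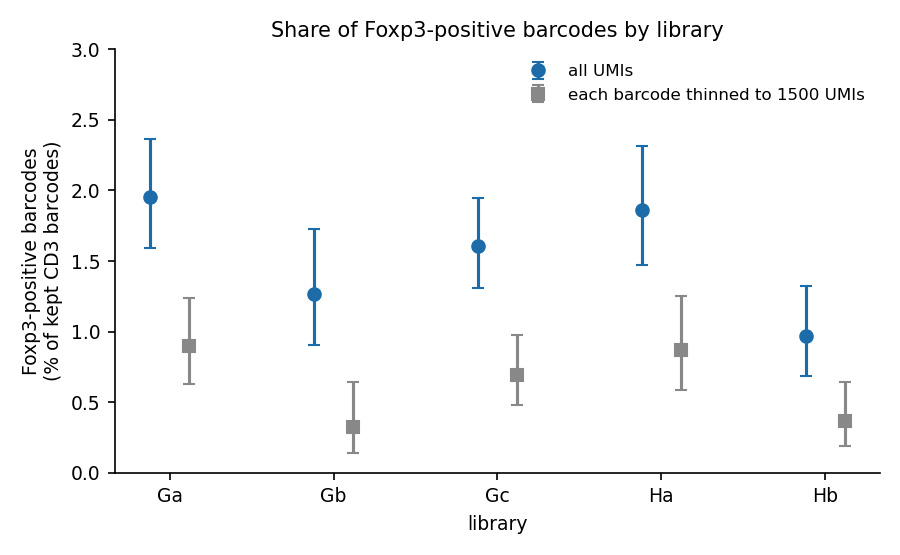
Foxp3-positive barcodes as a percentage of kept CD3 barcodes in each of the 5 libraries, with exact 95% intervals (counting error only), from all UMIs (circles) and after thinning each barcode to 1500 UMIs (squares). From all UMIs, Ga and Ha lie highest at 1.95% and 1.86% and Hb lowest at 0.967%; after thinning Gb is lowest at 0.326%.

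A part of the Foxp3-positive cells held RNA of the T-cell receptor delta constant gene Trdc, which lies inside the alpha locus. A Trdc UMI was present in 125 of the 360 barcodes (34.7%), and the share ran from 32.1% (Ha) to 36.8% (Hb) over the libraries. Their intervals overlapped. Since the Foxp3-negative comparison set excludes Trdc, the comparison was made with Foxp3-negative barcodes with a Cd4 UMI and any Trdc. Among barcodes with a Cd4 UMI, Trdc was found in 86 of 266 Foxp3-positive barcodes (32.3%, 26.7 to 38.3%), against 2026 of 14458 Foxp3-negative ones (14.0%, 13.5 to 14.6%). At 1500 UMIs per barcode the shares were 13.9% (9.99 to 18.7%) and 4.50% (4.16 to 4.85%) in the same order of populations. The gamma constant gene Tcrg-C1 was low, at 7.29 CPM in the Foxp3-positive barcodes of at most 100000 UMIs and 0.585 CPM in the Foxp3-negative CD4 barcodes. For Tcrg-C1 the Foxp3-negative set was the one without Trdc and with Cd4, so this difference cannot be told apart from the choice of cells. A Cd4 UMI was present in 266 of the 360 barcodes, so 94 were chosen without one, which the Foxp3-negative barcodes could not be.

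The Foxp3-positive cells differed from the Foxp3-negative CD4 cells in a broad set of genes. A gene was tested when the mean of its pooled CPM in both populations was at least 10, leaving out the genes of the rule, mitochondrial and ribosomal protein genes and receptor variable segments. It was called when it was at least 2-fold apart in the same direction in all 5 libraries, with 0.5 UMI added to each count. Of 8574 genes tested, 345 were called higher (4.02%) and 64 lower (0.746%). The called higher genes included 16 with 0 UMIs in the Foxp3-positive barcodes of at least 1 library, where the ratio rests on the added UMI. As the Foxp3-positive totals are smaller, the added UMI raises ratios at low counts. Without it, 314 genes were higher and 64 lower. The median gene had a log2 ratio of 0.06. Of the higher genes, 184 were under 10 CPM in the Foxp3-negative barcodes and so passed the filter through the Foxp3-positive ones alone, and 16 of the lower genes passed only through the Foxp3-negative ones. Without the barcodes of over 100000 UMIs, 293 of the higher and 55 of the lower genes were called again. A count of 0 allows up to 3 UMIs, which is 2.04 (Gc) to 8.41 CPM (Hb) in the Foxp3-positive barcodes and 0.100 to 0.204 CPM in the larger Foxp3-negative populations.

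Receptors led the genes that were higher. All 15 genes named for the largest ratios were under 10 CPM in the Foxp3-negative barcodes, at most 6.80 CPM (Dscam). They passed the filter only through the Foxp3-positive barcodes, so the ranking favours genes near 0 in the Foxp3-negative ones. Il1rl1, the receptor chain for interleukin-33 and a gene of tissue-type regulatory T cells (chromosome 1, 40429570 to 40465415, plus strand), had 16.2 CPM in Ga, 49.5 CPM in Gb (76.0 without its largest barcode), 36.8 CPM in Gc, 128 CPM in Ha and 61.7 CPM in Hb. The Foxp3-negative barcodes had 0.167 CPM in Ga, 0 in Gb, 1.13 CPM in Gc, 0.564 CPM in Ha and 0.051 CPM in Hb. The populations did not overlap, and the Foxp3-positive cells of Ha were highest and those of Ga lowest. The median log2 ratio was 7.78 (in Ha, 6.96 to 8.83), and 45 of the 360 barcodes held an Il1rl1 UMI. Lrrc32, which displays latent TGF-beta on the surface of regulatory T cells (chromosome 7, 98489283 to 98502181, plus strand), had 71.4 CPM in Ga, 23.2 CPM in Gb (40.7 without its largest barcode), 75.0 CPM in Gc, 88.0 CPM in Ha and 50.4 CPM in Hb. It had 0.837, 0.747, 0.634, 0.376 and 0.306 CPM in the Foxp3-negative barcodes in the same library order. Its median log2 ratio was 6.86 (in Gc, 6.18 to 7.67), and at 146 barcodes it was more widely spread among the cells than Il1rl1. Klrg1, an inhibitory receptor of late effector cells (chromosome 6, 122270596 to 122282882, minus strand), ranged from 13.0 (Ga) to 50.1 CPM (Ha), against 0.042 (Ga) to 0.475 CPM (Gb), with a median log2 ratio of 6.79 (in Gc, 5.69 to 8.27) and UMIs in 35 barcodes.

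The other genes with the largest ratios had diverse roles. Gpr83, a G protein-coupled receptor used as a marker of regulatory T cells, had 59.2 CPM in Ga and 76.3 CPM in Gc but 3.09 CPM in Gb (5.43 without its largest barcode), 3.67 CPM in Ha and 16.8 CPM in Hb. Its Foxp3-negative levels ran from 0.188 (Ha) to 1.17 CPM (Ga), and its median log2 ratio was 5.64 (in Ga, 5.01 to 6.34). Socs2, a feedback inhibitor of cytokine signalling, was at 103 CPM in Ga and 106 CPM in Gc, against 1.76 and 2.30 CPM in the Foxp3-negative barcodes, and its median log2 ratio was 5.32 (in Hb, 4.43 to 6.17). Gpr55, a receptor for lysophosphatidylinositol, ranged from 19.6 (Hb) to 44.0 CPM (Ha), with a median log2 ratio of 5.60. Dscam, a cell adhesion molecule known from neurons, was in 102 of the 360 barcodes at 112 (Gc) to 364 CPM (Gb), or 207 CPM in Gb with its largest barcode, against 2.37 (Gc) to 15.8 CPM (Ha) in the Foxp3-negative barcodes. Cables1, a linker of cyclin-dependent kinases, Penk, the precursor of enkephalin peptides, Rgs9, which speeds the GTPase of G protein alpha subunits, and Peli2, a ubiquitin ligase, had median log2 ratios of 5.38, 5.26, 5.22 and 5.15. Vegfc, a growth factor of lymphatic vessels, had a median of 6.19 but 0 UMIs in the Foxp3-positive barcodes of Hb, and it is not called when no UMI is added. Peli2 had 1.55 CPM in Gb, where its Foxp3-negative level was 0.543 CPM.

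A pair of further entries of this ranking cannot be told apart from the rule. Gm28112 (chromosome 1, 69660187 to 69662061, minus strand) lies inside Ikzf2, and Gm29114 (chromosome 1, 69513932 to 69547707, plus strand) overlaps its end. They had median log2 ratios of 5.82 and 5.48, against 5.40 for Ikzf2 itself. A UMI of Gm28112 was present in 171 barcodes and one of Gm29114 in 131. The sources used here do not give how reads in overlapping genes were assigned, so their counts cannot be told apart from Ikzf2 RNA. In all, 3 of the 345 higher genes overlapped a gene used by the rule.

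**Figure D2:**
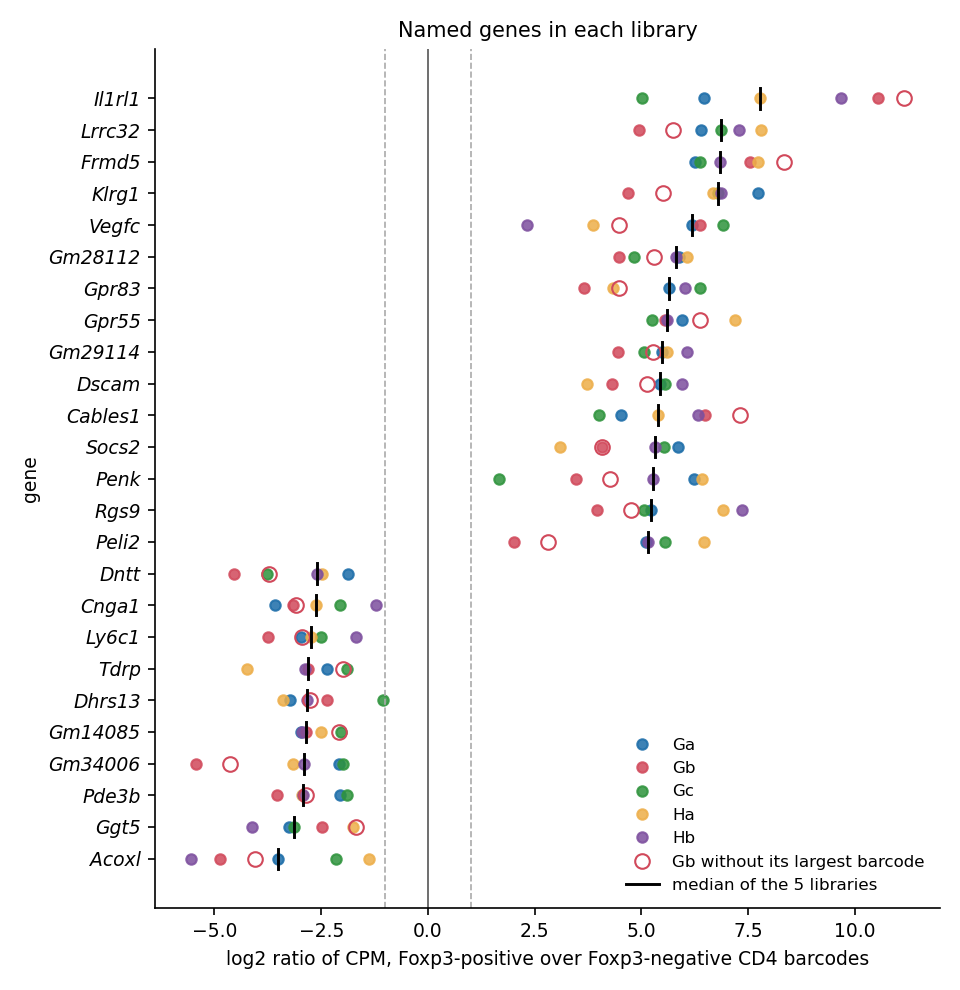
Log2 ratio of CPM in Foxp3-positive over Foxp3-negative CD4 barcodes (0.5 UMI added) for the 15 genes with the largest and the 10 with the smallest median among the called genes, 1 filled circle per library, with open circles for Gb without its largest barcode, bars for the median and dashed lines at 2-fold. Il1rl1 has the largest median at 7.78 and Acoxl the smallest at -3.51. The 15 genes with the largest medians passed the filter only through the Foxp3-positive barcodes.

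Of the 25 receptors listed as typical of regulatory T cells, 23 passed the filter, 19 were called higher and none lower, with a median log2 ratio of 3.10 against 0.06 over all genes tested. Of all genes tested, 4.02% were called higher. The list summed to 5354 CPM in Ga, 2411 CPM in Gb (4073 without its largest barcode), 4654 CPM in Gc, 3950 CPM in Ha and 4232 CPM in Hb. In the Foxp3-negative barcodes it summed to 1413, 1191, 1336, 1115 and 1113 CPM in the Foxp3-negative barcodes of those libraries. The lowest Foxp3-positive value lay above the highest Foxp3-negative one. Of the 19 genes called, 9 were under 10 CPM in the Foxp3-negative barcodes and passed the filter only through the Foxp3-positive ones. Of the 14 list members at 10 CPM or more in the Foxp3-negative barcodes, 10 were 2-fold higher in every library, with a median of 2.40. Tnfrsf9, Tnfrsf4, Tnfrsf18 and Tnfrsf1b, receptors of the TNF family, were called with median log2 ratios of 4.96, 3.81, 2.28 and 2.28, while Cd27, of the same family, was not, with log2 ratios of -0.35 to 0.35. Tigit, an inhibitory receptor, had one of the most even differences of the list, with log2 ratios of 3.95 to 4.54. Itgb8, an integrin chain that releases active TGF-beta, was at 81.3 (Hb) to 175 CPM (Ga), against 2.96 (Ha) to 7.06 CPM (Gb). Nrp1 was highest in Hb at 888 CPM and 304 (Gc) to 714 CPM (Gb, or 450 with its largest barcode) elsewhere, against 73.7 (Gc) to 131 CPM (Gb). At the other end, Cd28, the costimulatory receptor that all T cells need, had 349 CPM in Ga, 260 CPM in Gb (453 without its largest barcode), 324 CPM in Gc, 430 CPM in Ha and 345 CPM in Hb. Its Foxp3-negative levels were 460, 476, 455, 442 and 434 CPM in those libraries, and the median log2 ratio of -0.40 was not past 2-fold.

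The interleukin-2 receptor chains Il2ra and Il2rb were higher in the Foxp3-positive cells in every library. Il2ra (chromosome 2, 11642807 to 11693193, plus strand) had 679 CPM in Ga, 37.1 CPM in Gb (65.2 without its largest barcode), 784 CPM in Gc, 141 CPM in Ha and 305 CPM in Hb. The Foxp3-negative barcodes had 113 CPM in Ga, 7.74 CPM in Gb, 111 CPM in Gc, 4.94 CPM in Ha and 4.03 CPM in Hb. Ga and Gc were the highest libraries in both populations, and the log2 ratio ran from 2.29 in Gb to 6.24 in Hb. An Il2ra UMI was found in 153 of the 360 cells, fewer than the 258 with Il2rb, whose CPM ranged from 174 (Hb) to 273 (Ga), against 15.6 (Hb) to 23.9 (Ga). Among genes that respond to interleukin-2 signalling, Cish and Socs2 were called higher and Socs1 was not (median 0.93). Of the signal transducers Stat5a and Stat5b, Stat5a was called at a median of 1.87 while Stat5b had 0.76. Cish and Socs2 passed the filter only through the Foxp3-positive barcodes.

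Among mediators of suppression, 7 of 15 passed the filter, 5 were called higher (Lrrc32, Penk, Pdcd1, Entpd1 and Nt5e) and none lower, with a median log2 ratio of 3.10. The share called higher over all genes tested was 4.02%. Lrrc32, Penk and Entpd1 were under 10 CPM in the Foxp3-negative barcodes and passed only through the Foxp3-positive ones. Of the 4 mediators at 10 CPM or more in the Foxp3-negative barcodes, 2 were called higher, with a median of 1.98. Lrrc32, Entpd1 and Nt5e are also members of the receptor list above. Without the filter, 9 of the 15 were 2-fold higher in every library. Entpd1 and Nt5e encode CD39 and CD73, which convert extracellular ATP to adenosine. Entpd1 had 39.2 (Hb) to 73.3 CPM (Gb), against 4.14 (Ha) to 5.90 CPM (Gc), and Nt5e had 207 (Hb) to 394 CPM (Ga), against 31.1 (Hb) to 39.9 CPM (Ga and Gb). Pdcd1, the inhibitory receptor PD-1, had 150 CPM in Ga, 85.1 CPM in Gb (149 without its largest barcode), 140 CPM in Gc, 279 CPM in Ha and 160 CPM in Hb, against 12.8 (Gb) to 18.8 CPM (Ha), and Ha was highest in both populations. Tgfb1 had 142 CPM in Ga, 72.7 CPM in Gb (95 without its largest barcode), 180 CPM in Gc, 128 CPM in Ha and 109 CPM in Hb. Its Foxp3-negative values were 117, 107, 123, 107 and 100 CPM in those libraries, so the ranges overlapped and the median log2 ratio was 0.27. The 8 mediators under the filter were Il10, Ebi3, Il12a, Gzmb, Prf1, Fgl2, Areg and Lag3. Ebi3, a subunit of interleukin-35, had 12.3 to 19.6 CPM in the Foxp3-positive cells, against 0.255 to 1.33 CPM. Gzmb, a cytotoxic protease, had 68 UMIs in 15 cells, and 1 cell held 44.1% of them.

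Transcription factors and regulators moved in both directions. Of 28, 27 passed the filter, 7 were called higher (Socs2, Cish, Maf, Rora, Ikzf4, Stat5a and Tox) and 1 lower (Satb1), with a median log2 ratio of 0.93. Among all genes tested, 4.02% were called higher and 0.746% lower. Socs2 and Cish were under 10 CPM in the Foxp3-negative barcodes and passed only through the Foxp3-positive ones. Of the 24 regulators at 10 CPM or more in the Foxp3-negative barcodes, 5 were called higher, with a median of 0.64. Maf, a factor of interleukin-10-producing and follicular T cells, had 193 (Hb) to 362 CPM (Ga), against 26.5 (Hb) to 33.6 CPM (Gb). Rora, a factor of tissue lymphocytes, had 457 (Ga) to 809 CPM (Gb), or 461 CPM in Gb with its largest barcode, against 81.1 (Gc) to 99.3 CPM (Ha). Ikzf4, a relative of Ikzf2, had 73.3 (Gb) to 140 CPM (Ga), against 12.3 (Ha) to 31.0 CPM (Gc). Satb1, a chromatin organiser that regulatory T cells keep low (chromosome 17, 51736187 to 51833290, minus strand), had 582 CPM in Ga, 349 CPM in Gb (608 without its largest barcode), 912 CPM in Gc, 498 CPM in Ha and 521 CPM in Hb. Its Foxp3-negative levels were 2122, 2173, 2387, 2216 and 2090 CPM in the Foxp3-negative barcodes of those libraries, with no overlap and a median log2 ratio of -2.0 (in Hb, -2.22 to -1.80). Ets1 and Runx1, which act with Foxp3, differed little, with medians of 0.15 and 0.05. Gata3 was at 106 (Hb) to 173 CPM (Gc) except in Gb (52.6 CPM, or 92.3 without its largest barcode), against 39.4 (Gb) to 44.7 CPM (Hb), and was not called with that barcode included.

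Genes of the central, naive state were lower. Of 15, 14 passed the filter, 6 were called lower (Ly6c1, Actn1, Satb1, Tcf7, Lef1 and S1pr1) and none higher, with a median log2 ratio of -1.15. The share called lower over all genes tested was 0.746%. The list summed to 5090 CPM in Ga, 3230 CPM in Gb (4722 without its largest barcode), 6262 CPM in Gc, 4698 CPM in Ha and 5241 CPM in Hb, against 11388 (Ga) to 12005 CPM (Gc) in the Foxp3-negative barcodes. Ly6c1, a surface protein of the Ly6 family (chromosome 15, 75044018 to 75048830, minus strand), had 44.6 CPM in Ga, 41.8 CPM in Gb (73.3 without its largest barcode), 66.8 CPM in Gc, 80.7 CPM in Ha and 174 CPM in Hb, against 355, 575, 381, 541 and 567 CPM in the Foxp3-negative barcodes of those libraries. It was low in all libraries, and its median log2 ratio was -2.74 (in Ha, -3.12 to -2.40). The naive T-cell factors Tcf7 and Lef1 had median log2 ratios of -1.51 and -1.43. Ccr7, a chemokine receptor that guides cells into lymph nodes, had -0.73 and was not called. Bcl2, listed here as a gene of long-lived naive cells, went the other way, with 137 (Ha) to 590 CPM (Gc) against 99.4 (Hb) to 196 CPM (Ga) and a median of 0.77 that was not past 2-fold in every library.

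The 10 genes with the smallest ratios were led by Acoxl, an acyl-CoA oxidase-like gene, and Ggt5, of the gamma-glutamyltransferase family, with medians of -3.51 and -3.14 but only 42 and 13 UMIs in the Foxp3-positive cells. Pde3b, a phosphodiesterase of cyclic nucleotides (chromosome 7, 114415281 to 114539251, plus strand), rested on more counts. It had 497 CPM in Ga, 216 CPM in Gb (342 without its largest barcode), 589 CPM in Gc, 303 CPM in Ha and 305 CPM in Hb, against 2077, 2502, 2205, 2330 and 2335 CPM in the Foxp3-negative barcodes of those libraries. The levels did not overlap, and the median log2 ratio was -2.93 (in Hb, -3.22 to -2.66). Gm14085, with 64.9 (Ga) to 179 CPM (Gb) against 510 (Ga) to 865 CPM (Ha), had a median of -2.86. Dntt, the terminal transferase that marks cells recently out of the thymus, had 4.09 (Gc) to 17.1 CPM (Ha), against 57.6 (Ga) to 99.2 CPM (Ha). Gm34006, which is antisense to Scml4, Dhrs13, Tdrp and Cnga1, a subunit of a cyclic nucleotide-gated channel, had medians of -2.90, -2.84, -2.81 and -2.62. Of these, Gm34006 cannot be told apart from Scml4, which had a median of -2.09.

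Effector and tissue-homing genes were higher. Of 22, 20 passed the filter, 14 were called higher and none lower, with a median log2 ratio of 2.69, beside 4.02% of all genes tested called higher. Of the 14 called, 5 passed the filter only through the Foxp3-positive barcodes. Of the 14 list members at 10 CPM or more in the Foxp3-negative barcodes, 9 were called, with a median of 1.82. The list summed to 2862 CPM in Ga, 7871 CPM in Gb (2998 without its largest barcode), 2718 CPM in Gc, 3598 CPM in Ha and 2528 CPM in Hb, against 900, 944, 776, 1057 and 979 CPM in the Foxp3-negative barcodes in the same library order. The high value of Gb came from the largest barcode, which alone held 94.5% of the S100a4 UMIs of the Foxp3-positive barcodes of Gb. Of the 6 chemokine receptors of the list, Ccr2, Ccr6 and Cxcr3 were called. Ccr4 was not called, with 0 UMIs in the Foxp3-positive cells of Hb, and Ccr8 and Cxcr6 did not pass the filter. Ccr2 had 26.0 (Ga) to 64.5 CPM (Hb), against 1.33 (Hb) to 3.85 CPM (Ha), Ccr6 had 8.41 (Hb) to 34.1 CPM (Gc), against 0.272 (Gb) to 1.03 CPM (Ha), and Cxcr3 had 54.5 (Gc) to 115 CPM (Ha), against 14.5 (Ga) to 22.0 CPM (Ha). Itgae, the CD103 chain that binds E-cadherin, was highest in Hb at 129 CPM and 32.6 (Gb) to 56.8 CPM (Ga) elsewhere, against 2.73 (Gc) to 3.22 CPM (Ga). Itgb1 was the gene of the list with the smallest median, 1.01, with 256 CPM in Ga, 470 CPM in Gb (562 without its largest barcode), 214 CPM in Gc, 264 CPM in Ha and 390 CPM in Hb, against 124 (Gc) to 160 CPM (Gb).

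**Figure D3:**
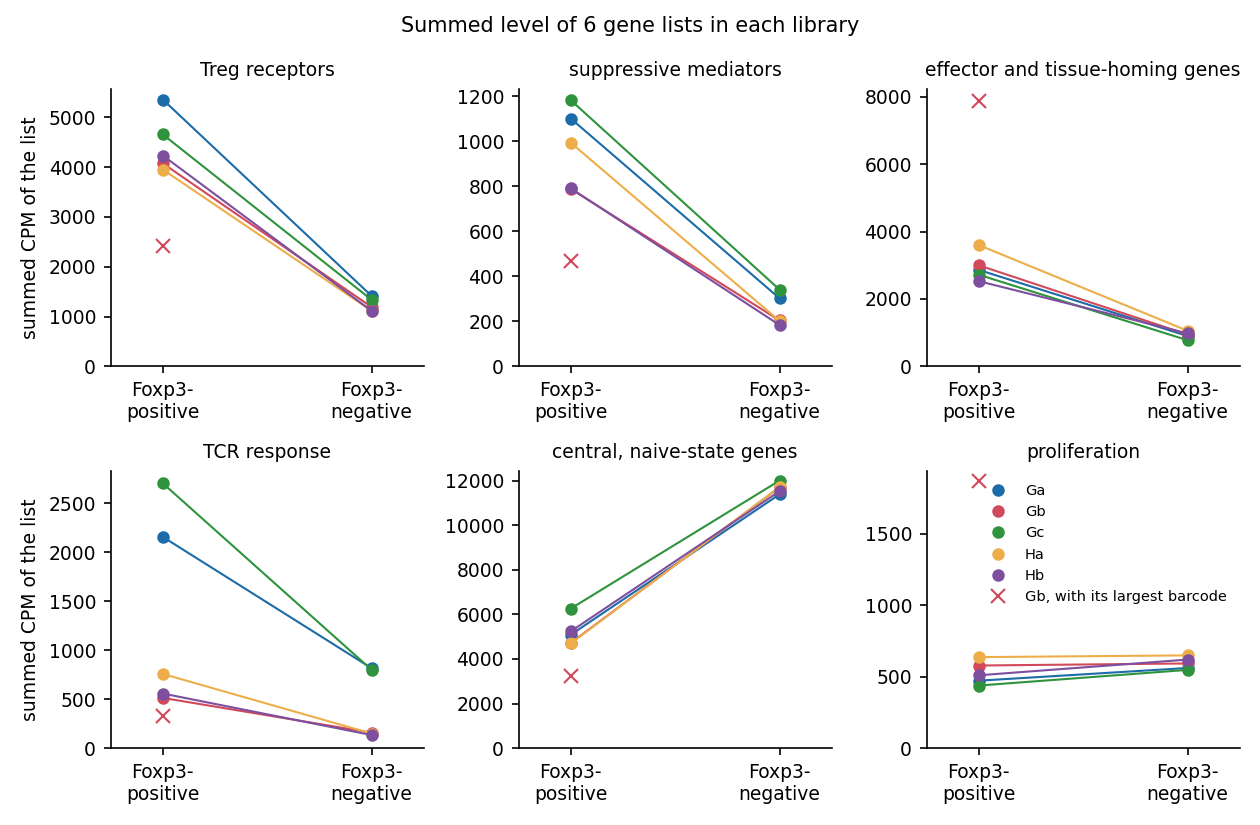
Summed CPM of 6 gene lists in Foxp3-positive and Foxp3-negative CD4 barcodes, 1 line per library, with Gb drawn without its largest barcode and crosses for Gb with it. Receptors, mediators, effector genes and the TCR response list lie higher in the Foxp3-positive barcodes of all libraries, the central, naive-state genes lie lower, and proliferation genes stay near the Foxp3-negative level except in Gb with that barcode.

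Frmd5, which encodes a FERM domain protein (chromosome 2, 121545529 to 121807087, minus strand), was distributed unevenly among the Foxp3-positive cells. It had 148 CPM in Ga, 234 CPM in Gb (407 without its largest barcode), 164 CPM in Gc, 295 CPM in Ha and 314 CPM in Hb, against 1.92, 1.22, 1.97, 1.36 and 2.70 CPM in the Foxp3-negative barcodes in the same library order, with a median log2 ratio of 6.85 (in Hb, 6.37 to 7.36). Its 927 UMIs lay in only 30 of the 360 cells, and 876 of them lay in 18 cells with at least 10 UMIs each. Ga held 5 of these 18 cells, Gb 1, Gc 6, Ha 5 and Hb 1. Of the other 22487 CD3 barcodes, 215 held an Frmd5 UMI and 7 held at least 10. A high Frmd5 level was therefore found in few cells, mostly Foxp3-positive ones, and in every library. In the 29 cells with an Frmd5 UMI and at most 100000 UMIs, Il1rl1 had 193 CPM, Klrg1 81.8 CPM, Ccr2 127 CPM, Tnfrsf9 931 CPM and Maf 747 CPM, against 41.2, 22.2, 32.4, 318 and 273 CPM in the 329 without. Gpr83 and Ly6c1 were lower there, at 5.28 and 2.64 CPM, against 51.9 and 78.4 CPM. These cells were picked after their values were seen, and 29 cells over 5 libraries are too few for values per library.

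**Figure D4:**
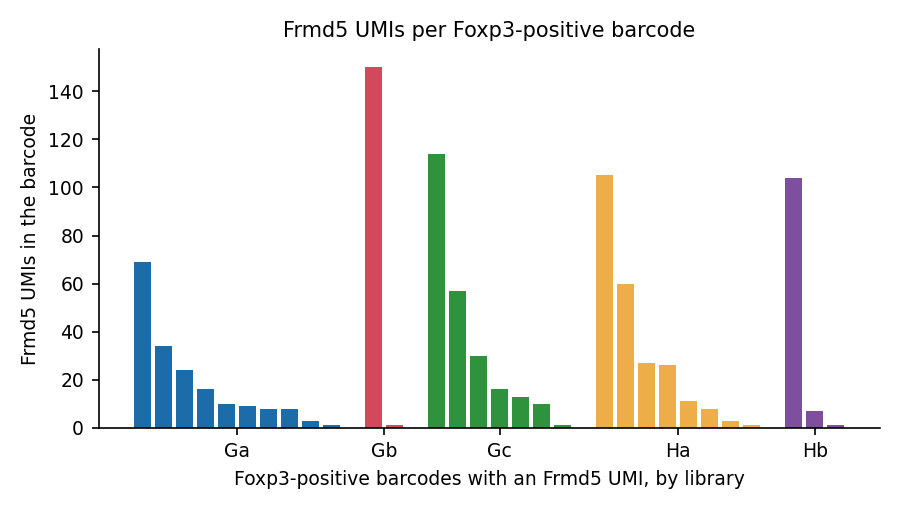
Frmd5 UMIs in each of the 30 Foxp3-positive barcodes that held any, sorted within each library, 1 bar per barcode. In every library 1 barcode holds 69 to 150 UMIs, and the 18 barcodes with at least 10 UMIs hold 876 of 927.

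The TCR response list, genes switched on after receptor engagement, was higher in the Foxp3-positive cells in sum. It had 2157 CPM in Ga, 325 CPM in Gb (513 without its largest barcode), 2704 CPM in Gc (2026 without its barcode of over 100000 UMIs), 758 CPM in Ha and 558 CPM in Hb, against 816, 158, 800, 149 and 134 CPM in the Foxp3-negative barcodes of those libraries. Ga and Gc were high in both populations. Of 18 genes, 17 passed the filter, 6 were called higher (Tnfrsf9, Nr4a1, Nr4a2, Nr4a3, Bcl2a1b and Mir155hg) and none lower, with a median log2 ratio of 1.70. Over all genes tested, 4.02% were called higher. Tnfrsf9, the receptor 4-1BB (chromosome 4, 150914562 to 150946102, plus strand), had 591 CPM in Ga, 57.2 CPM in Gb (100.5 without its largest barcode), 359 CPM in Gc, 278 CPM in Ha and 140 CPM in Hb. Its Foxp3-negative levels were 31.6 CPM in Ga and 23.7 CPM in Gc, but 1.83 CPM in Gb, 2.16 CPM in Ha and 1.79 CPM in Hb. The lowest Foxp3-positive level thus exceeded the highest Foxp3-negative one. The orphan nuclear receptor Nr4a1 had 154 CPM in Ga, 18.6 CPM in Gb (21.7 without its largest barcode), 253 CPM in Gc, 29.3 CPM in Ha and 19.6 CPM in Hb, against 73.6, 2.10, 68.2, 1.27 and 0.714 CPM in the Foxp3-negative barcodes of those libraries. Egr1, an early response factor, had the smallest median of the list, 0.36, with 60.0 CPM in Ga, 3.09 CPM in Gb (5.43 without its largest barcode), 184 CPM in Gc, 12.2 CPM in Ha and 2.80 CPM in Hb, against 47.2, 4.07, 42.0, 3.90 and 4.29 CPM. Single cells weighed on some genes, as 1 cell held 50.4% of all Egr3 UMIs and 1 held 35.9% of those of Egr1.

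Depth was then made equal between cells. After thinning to 1500 UMIs, a UMI of an Egr gene (Egr1 to Egr3) or an Nr4a gene (Nr4a1 to Nr4a3) was present in 9 of 102 Foxp3-positive cells of Ga (8.82%, 4.11 to 16.1%), against 9.48% of Foxp3-negative ones (8.38 to 10.7%). In Gc it was present in 16 of 103 cells (15.5%, 9.15 to 24.0%), against 7.38% (6.51 to 8.34%). In the 3 libraries with the lowest Foxp3-negative shares, it was present in 2 of 39 cells of Gb (5.13%, 0.627 to 17.3%) against 0.952%, in 5 of 77 of Ha (6.49%, 2.14 to 14.5%) against 1.31%, and in 4 of 38 of Hb (10.5%, 2.94 to 24.8%) against 0.792%. The interval of the Foxp3-positive share lay above that of the Foxp3-negative one in Gc, Ha and Hb, and overlapped it in Ga and Gb. This split holds for these 6 genes at 1500 UMIs only. At 3000 UMIs Gb was also apart, with 10.3% (lower bound 2.87%) against an upper bound of 2.77%, and with 10 genes at 1500 UMIs the intervals overlapped in all 5 libraries. Without thinning, the share in Ga was 33.3% against 22.0%. The Foxp3-positive shares rest on 2 to 16 cells per library.

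**Figure D5:**
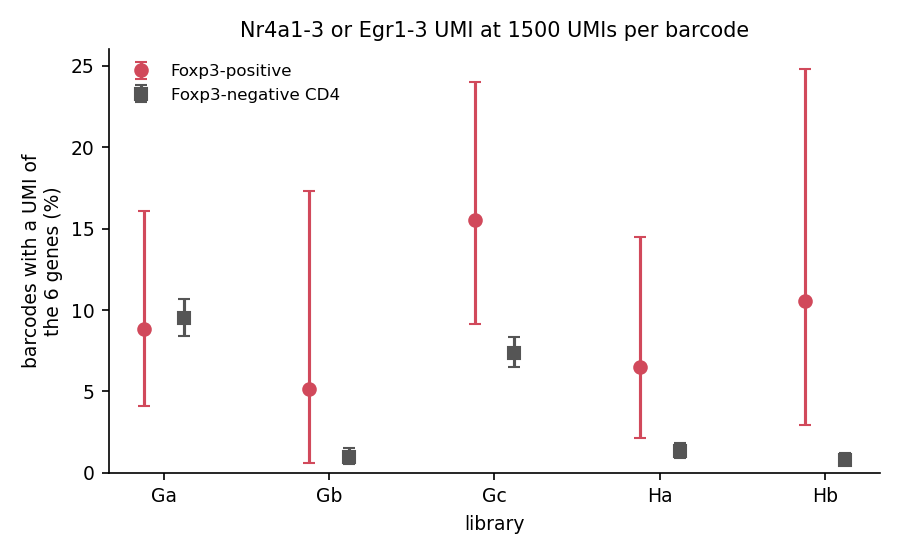
Share of Foxp3-positive and Foxp3-negative CD4 barcodes with a UMI of Nr4a1 to Nr4a3 or Egr1 to Egr3 after thinning to 1500 UMIs, by library, with exact 95% intervals (counting error only). The Foxp3-negative shares are 9.48% in Ga and 7.38% in Gc and at most 1.31% elsewhere, while the Foxp3-positive shares run from 5.13% to 15.5% with wide intervals.

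In the cytokine and survival lists, 4 survival genes were called higher. Of 15 cytokines of conventional T cells, 6 passed the filter and none was called in either direction. Over all genes tested, 4.02% were called higher and 0.746% lower, so no call among 6 genes is not a result about the list. Cd40lg, the helper ligand for CD40, had 39.8 CPM in Ga, 20.1 CPM in Gb (35.3 without its largest barcode), 98.1 CPM in Gc, 20.8 CPM in Ha and 19.6 CPM in Hb, against 125, 162, 115, 163 and 173 CPM, with a median log2 ratio of -2.93 that failed 2-fold in Gc alone. Interleukin-2 had 39 UMIs in 6 cells and interleukin-21 had 29 UMIs in 1 cell. Xcl1, a chemokine that attracts dendritic cells, had 33 UMIs in 7 cells, and 1 cell held 69.7% of them. Of 13 survival genes, 12 passed the filter and 4 were called higher, with a median of 0.75, while 4.02% of all genes tested were called higher. Of the 11 survival genes at 10 CPM or more in the Foxp3-negative barcodes, 3 were called, with a median of 0.74. The remaining call, Pmaip1, passed only through the Foxp3-positive barcodes. Pmaip1, which encodes the cell death activator Noxa, had 26.8 CPM in Ga, 17.0 CPM in Gb (27.2 without its largest barcode), 26.6 CPM in Gc, 59.9 CPM in Ha and 25.2 CPM in Hb, against 2.26, 3.12, 2.83, 1.97 and 1.43 CPM, a median log2 ratio of 3.58 (in Ga, 2.90 to 4.22). The survival genes called higher thus included both a death activator and the death-opposing genes Bcl2l1 and Bcl2a1b, with Bcl2l1 at a median of 1.47. Without the barcodes of over 100000 UMIs the lowest ratio of Bcl2l1 was 0.11. Mcl1 had the smallest median of the list, -0.14.

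Proliferation genes were near the Foxp3-negative level in sum, but single genes differed in direction. Of 15, 8 passed the filter and none was called, beside 4.02% called higher and 0.746% lower over all genes tested. At these shares, no call among 8 genes is not a result about the list. The list summed to 472 CPM in Ga, 1870 CPM in Gb (578 without its largest barcode), 438 CPM in Gc, 637 CPM in Ha and 510 CPM in Hb, against 561, 593, 548, 649 and 620 CPM. Mki67, a marker of cycling cells, had 106 UMIs of which 57.5% were in 1 cell, and Top2a 84.4%. Stmn1, a regulator of microtubules, had 18.7 CPM in Ga, 75.8 CPM in Gb (19.0 without its largest barcode), 27.3 CPM in Gc, 41.6 CPM in Ha and 16.8 CPM in Hb, against 106, 132, 101, 155 and 136 CPM. Its median log2 ratio was -1.88, and it missed 2-fold in Gb with that barcode only. Interferon-induced genes were not called in either direction (16 of 18 passed, median 0.51). Beside the same shares over all genes tested, no call among 16 genes is not a result about the list either. Their sum was 3019 CPM in Ga and 2785 CPM in Gc, against 2386 and 2900 CPM, and 2234 CPM in Hb, against 999 CPM. Gbp5, a guanylate-binding protein, had the largest median of the list at 1.18, with 131 CPM in Ga, 1.55 CPM in Gb (2.72 without its largest barcode), 104 CPM in Gc, 18.3 CPM in Ha and 47.6 CPM in Hb, against 44.1, 6.79, 79.4, 8.32 and 8.17 CPM. Gbp4 had the smallest at -1.04, with 96.5 CPM in Ga and 100.2 CPM in Gc, against 199.6 and 244 CPM.

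The receptor segments were read from few UMIs. The choice of cells did not use the segments themselves, but it held the Foxp3-negative side alone to no Trdc and a Cd4 UMI. Of the 360 Foxp3-positive barcodes, 125 held Trdc and 266 held Cd4. The differences in segments below therefore cannot be told apart from this choice. OT-II cells carry transgenes that use V beta 5 (Trbv12) and V alpha 2 (the Trav14 family). Trbv12 made up 21 of 48 beta variable UMIs in the Foxp3-positive cells of Ga (43.8%), 5 of 16 in Gb (31.3%), 17 of 48 in Gc (35.4%), 10 of 26 in Ha (38.5%) and 9 of 16 in Hb (56.3%). In the Foxp3-negative cells it made up 53.5% (Gc) to 62.0% (Ha), with 60.8% for Ga, 60.5% for Gb and 58.8% for Hb. The Foxp3-positive share was lower in 5 of 5 libraries, and over all libraries it was 40.3% (62 of 154, 32.4 to 48.5%), against 59.1% (4226 of 7150, 58.0 to 60.2%). Trav14 segments went the other way over all libraries, with 21.2% (36 of 170, 15.3 to 28.1%) of alpha variable UMIs in the Foxp3-positive cells, against 10.9% (701 of 6416, 10.2 to 11.7%). They were higher in Ga (22.0% against 10.6%), Gb (46.7% of 15 UMIs against 10.7%) and Gc (23.4% against 9.60%), but not in Ha (8.82% against 10.7%) or Hb (12.5% of 16 UMIs against 13.3%). Without barcodes of over 100000 UMIs, the Foxp3-positive Trav14 share was 19.7% over all libraries (31 of 157, 13.8 to 26.8%) and 19.6% in Gc. The intervals over all libraries count each UMI as independent, although a barcode can hold several. In the Foxp3-positive cells, the 30 UMIs of Trav4-4-dv10 lay in 13 barcodes and the 60 of Trbv12-2 in 50. These intervals may therefore be too narrow for both chains. Segments of the same family are nearly identical. The sources used here do not give how their reads were assigned, so the family shares are uncertain.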

How the data were processed

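The authors deposited UMI counts per gene and barcode for single cells of 5 mouse samples, as 2 aggregated matrices of 32285 genes with their lists of barcodes and genes. Per the submitters' processing notes the tool was Cell Ranger 6.0.0 and the build mm10, while the matrix headers name version 7.1.0. The sources used here do not give whether introns counted or whether aggregation equalised depth. Either could change the levels. In other columns, the deposited text files hold barcode sequences and gene names, per the file headers.

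From these counts, UMIs were summed over the Foxp3-positive and the Foxp3-negative CD4 barcodes of each library and scaled to 1000000 (CPM), with Python 3.11.15, NumPy 2.4.6, SciPy 1.17.1 and pandas 2.3.3. Ratios carry exact conditional binomial intervals, shares exact Clopper-Pearson intervals, all at 95%. A library held 356830 (Hb) to 1467613 (Gc) UMIs of Foxp3-positive barcodes, against 14730834 (Gb) to 29984470 (Gc) of Foxp3-negative ones, so the Foxp3-positive side limits the precision. Thinning drew UMIs without replacement with seed 1. The ratio calculation was tested on simulated data. The genes named are the 15 largest and 10 smallest medians among called genes, and members of the lists, in full for the largest and smallest median of a list among those with at least 20 UMIs. The cells and lists were chosen with earlier results of these data known. No doublet caller was run, and an alternative leaves out likely doublets. Gene coordinates come from GENCODE M21 (GRCm38). Alternatives covered the cell filter, the Foxp3 threshold, lineage, depth, scaling, low counts and each library left out. Results that rest on some withheld items are not reported here.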

Additional observations from a re-analysis of the deposited data

How the results depend on the processing

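No paired analysis was possible because no replicate number is tied to a library. Both populations were compared within each library. The share of 1.58% became 1.10% with at least 2 Foxp3 UMIs, 2.04% with Foxp3 alone, 0.788% with Trdc at 0 and Cd4 required of the Foxp3-positive barcodes too, and 1.30% with likely doublets left out. It became 0.663% and 1.05% after thinning to 1500 and 3000 UMIs. The 345 higher genes became 588 at a minimum of 3 CPM and 189 at 30 CPM, where more and fewer genes were tested. They numbered 370 to 416 with a library left out, where fewer libraries had to pass. With Foxp3 alone, 12 genes in place of 64 were lower, 0 list genes in place of 6 were lower, and 16 of the 25 named genes stayed 2-fold apart in every library. The cause was not tested. With lineage required, 219 higher and 41 lower genes were shared with the main calls, and Vegfc, Acoxl, Ggt5, Dhrs13 and Cnga1 were lost. Without likely doublets 218 and 34 were shared, and Vegfc, Peli2, Acoxl, Ggt5, Gm14085 and Dhrs13 were lost. Among barcodes of 5000 to 15000 UMIs, Frmd5, Vegfc, Peli2 and Dhrs13 were lost. The median difference in TCR response share was 5.18 percentage points, 13.9 without thinning, and 4.68 to 6.67 with a library left out. The median difference in alpha UMIs outside Trav14 was -11.3 points, -5.28 to -12.6 with a library left out (-6.54 without Ga, and -5.28 without Gb or without Gc). In beta UMIs outside Trbv12, another quantity, it was 18.1. Against the alpha value, it had the opposite sign in Ga (17.0), Gb (29.3) and Gc (18.1), as did Gb at 0.409 when barcodes were counted at 1500 UMIs. The beta chain, the setting without added UMIs, equal weights per barcode and the removal of the largest barcodes were added after seeing the data. Without added UMIs 314 genes were higher. Among all recomputed values that answer a comparison, 105 stayed within their interval or 1.5 times and 13 moved beyond. Of the values for single libraries, lists and genes, 617 stayed within their range, 50 moved and 3 reversed. A reversal was counted only for values past 2-fold or with an interval that excluded 0. With 38 to 103 Foxp3-positive cells per library, depth limits genes under about 10 CPM.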
